A study of Mus musculus with 3 samples.

Results

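Visceral endoderm, the outer epithelium of the early embryo and later of the yolk sac, makes plasma proteins before the fetal liver takes over that task. The 10 genes described here encode secreted proteins of this kind: the albumin relatives Afp and Alb, the carriers Ttr, Trf and Rbp4, the fibrinogen chains Fga, Fgb and Fgg, and the cystatin-related Ahsg and Spp2. They were chosen by gene name for this shared function, with earlier results of these data known. They are 10 of the 30119 genes with a probe on the array. Of the 10, 9 had a probe well above background, each of them in both genotypes on all 3 arrays, and Alb did not.

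RNA came from mouse embryoid bodies, ball-like clusters in which embryonic stem cells differentiate, grown for 10 days in suspension without LIF, the cytokine that maintains stem cell self-renewal. The wild-type controls were compared with embryoid bodies labelled Dido3deltaCT+HADidoNT, which make a Dido3 protein truncated at its C-terminal end and overexpress the HA-tagged N-terminal region common to the Dido proteins, with its PHD domain. The labels do not name the stem cell lines, the number of clones or the promoter of the added construct, and so do not separate the mutation from differences between lines. Each of 3 Agilent arrays carried 1 mutant and 1 wild-type RNA in 2 colours, and the labels call the 3 RNAs of each genotype biological replicates. They do not say that these came from separate cultures, so the p-values measure the spread between these RNAs, which may be technical. The mutant RNA was labelled with Cy3 on arrays 1 and 3 and with Cy5 on array 2.

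In the blood, transthyretin (Ttr) carries thyroxine and binds the retinol carrier Rbp4, transferrin (Trf) carries iron, and alpha-fetoprotein (Afp) is the fetal counterpart of albumin (Alb). The chains encoded by Fga, Fgb and Fgg assemble into fibrinogen, the precursor of the fibrin clot. In liver and visceral endoderm many such genes are driven by transcription factors such as HNF4 and FOXA.

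Median spot intensity was 192 to 288 units in green and 150 to 210 in red, over a local background of 36 to 40 units, and no spot was saturated. The 3 arrays limit the precision of every value. The 4 probes of Dido1, the targeted gene, were at -3.60 ± 0.17, 3.03 ± 0.34, 2.35 ± 0.40 and -0.54 ± 0.93 as log2 ratios of mutant over wild type (SD, n = 3), so Dido1 differed between the genotypes in a direction that depended on the probe. Which Dido1 probes lie in the truncated or the added stretch was not assigned. The Y-linked genes Eif2s3y and Ddx3y were well above background in wild type on 3 arrays and in the mutant on 0, so the 2 genotypes also differ in detected Y-linked RNA.

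Most of the plasma protein genes were higher in the mutant, by 2.01-fold to 7.30-fold on average, but only Ttr passed the test across all genes. As log2 ratios of mutant over wild type, the 9 measured genes had a median of 2.05, against -0.013 over the 19668 genes tested. On all 3 arrays 7 of the 9 were higher, while 22.5% of all genes were so. Fga was mixed by the probe standing for the gene, though not by its other probe, and Ahsg was lower on all 3. In limma with Benjamini-Hochberg adjustment, 1 of the 9 was called higher, where 1.27% of all genes were. None was called lower, against 0.386% of all genes. Without adjustment 8 of the 9 had p under 0.05, Ahsg as the single lower one, beside 19.9% of all genes. These shares describe genes chosen with earlier results known and are not a test of the set. In whole embryoid bodies, more cells of a type and more RNA per cell cannot be told apart.

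**Figure D1:**
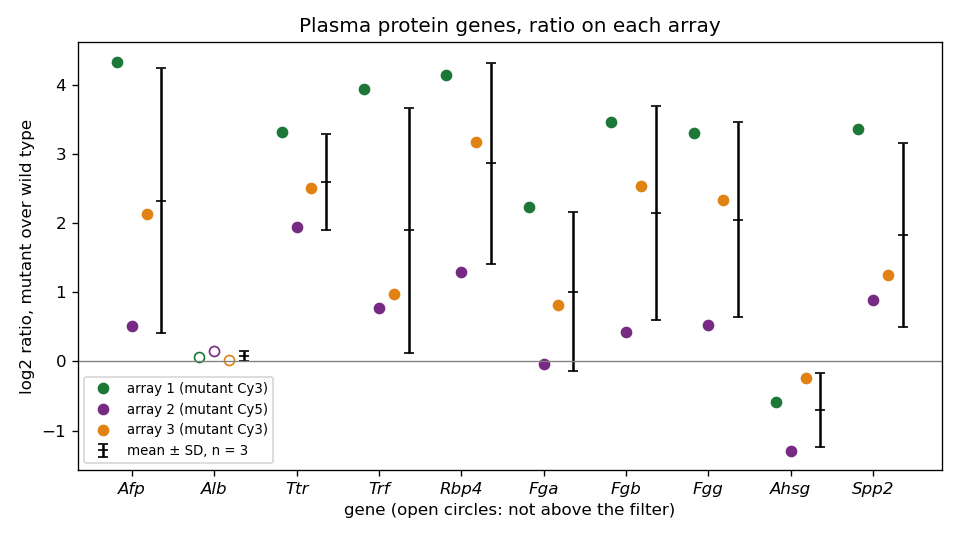
Log2 ratio of mutant over wild type on the vertical axis for each gene on the horizontal axis, with 1 point per array, coloured by array, and the mean with its SD (n = 3) in black. Array 1 gave the highest ratio and array 2 the lowest for the 8 genes with a mean above 0 among those measured, Alb (open circles) lay near 0 and was not above background, and Ahsg was below 0 on all arrays.

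The array pattern was shared. The median ratio of the 9 genes was 3.36 on array 1, 0.52 on array 2 and 2.14 on array 3. By the probe standing for each gene, the ratio was lowest on array 2 for all 9 of the measured genes. Over all genes it was lowest there for 44.4%. The other Fga probe was lowest on array 3, at 0.86, beside 0.98 on array 2. The wild-type level was highest on array 2 in each of the 9, against 39.5% of all genes. Array 2 is the only array with the wild type in Cy3, so replicate and dye cannot be told apart in this pattern. Array 2 was also nearest 0 for 8 neural genes, with median ratios of -3.32, -0.62 and -3.51 on arrays 1, 2 and 3. It was not so for every list: 8 cardiac muscle genes had medians of 1.71, 3.46 and 2.55, highest on array 2. Without array 2 the median of the 9 plasma protein genes was 2.81, over 2 arrays with the same dye order.

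Ttr rose. Its probe lies on chromosome 18 at 20828519 to 20828577 (mm9; no annotation of this build was used, so exons and UTRs are not assigned here for any probe). The normalized intensity was 65867, 58362 and 85231 in the mutant and 6565, 15117 and 15001 in wild type on arrays 1, 2 and 3. The lowest mutant value was above the highest wild-type value. The log2 ratios were 3.33, 1.95 and 2.51, with a mean of 2.59 ± 0.69 (SD, n = 3; 6.04-fold, limma adjusted p = 0.0459). The call was lost without replicate 1 or 3 (adjusted p = 0.214 and 0.152), with the local background not limited (0.168), without background correction (0.0505), without a filter (0.0777) and with the authors' values (0.0608), at mean log2 ratios of 2.23 to 2.64. Over all alternatives the adjusted p ran from 0.0119 to 0.214.

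Rbp4, whose protein travels in plasma bound to transthyretin, had the largest mean ratio among these genes. Its probe, on chromosome 19 at 38191120 to 38191179 (mm9), read 218273, 80780 and 196109 units in the mutant and 12358, 33079 and 21745 in wild type. The groups did not overlap. The log2 ratios of 4.14, 1.29 and 3.17 had a mean of 2.87 ± 1.45 (7.30-fold, adjusted p = 0.0848), with a 95% interval of 1.37 to 4.36, and did not pass. Rbp4 passed without replicate 2, at 3.66 (adjusted p = 0.0106), with a dye term, at 2.47 (adjusted p = 0.0172), and without the array pairing, at 2.87 (adjusted p = 0.0276). It was at 2.23 without replicate 1 (adjusted p = 0.289), at 2.72 without replicate 3 (adjusted p = 0.251) and at 2.88 with the local background not limited (adjusted p = 0.226). Of the 19668 genes tested, limma called 325 in the main fit. It called 5082 without replicate 2, 2534 with a dye term, which fits array 2 exactly, and 675 without the pairing.

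Afp did not pass, and its wild-type level varied widely. The probe on chromosome 5 at 90937781 to 90937840 (mm9) is spotted 10 times, and the mean level was 147428, 56834 and 79721 units in the mutant and 7306, 39953 and 18113 in wild type. The groups did not overlap, but the wild-type values alone spanned 5.47-fold. The log2 ratios were 4.33, 0.51 and 2.14, with a mean of 2.33 ± 1.92 (5.02-fold, adjusted p = 0.188, 95% interval 0.39 to 4.26). Without replicate 2 Afp was at 3.24 and passed (adjusted p = 0.0297). Both remaining arrays then carry the mutant in Cy3. Without replicate 1 it was at 1.32 (adjusted p = 0.557), and without replicate 3 at 2.42 (adjusted p = 0.422).

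The repeated spots show how far readings of the same RNA pair varied within an array. On array 1 the 10 Afp spots lay between 4.25 and 4.41, and on array 3 between 2.01 and 2.41. On array 2 they ran from -0.11 to 0.92, with the 3 spots of the first 50 rows at -0.11 to 0.13 and the other 7 at 0.51 to 0.92. Leaving out the first 50 rows of every array, a setting added after these spots were seen, gave a mean Afp ratio of 2.40 (adjusted p = 0.167). Fgb and Spp2 have their only spot in those rows.

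**Figure D2:**
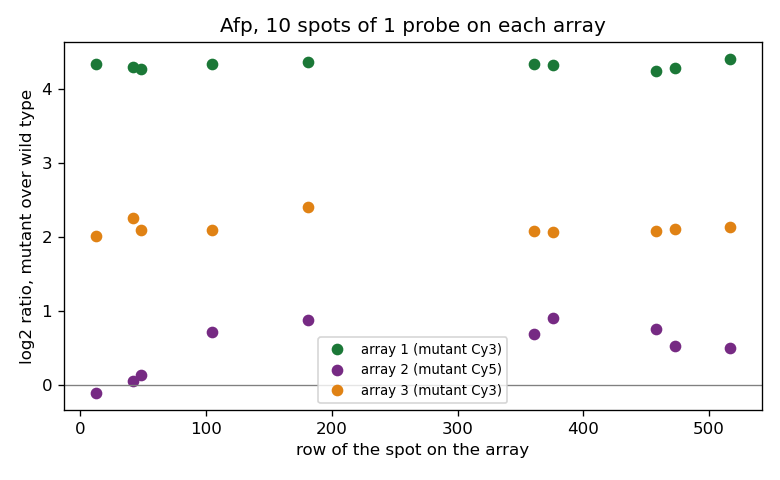
Log2 ratio of mutant over wild type (vertical axis) of the 10 spots of the Afp probe, by row of the spot on the array (horizontal axis), with 1 colour per array. Spots of an array lay close together except on array 2, where the 3 spots in the first rows read -0.11 to 0.13 and the others 0.51 to 0.92.

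Transferrin was read by 2 probes, both on chromosome 9 (mm9). The probe that stands for the gene, the brighter by mean intensity, at 103112826 to 103112885, read 23534, 10120 and 3464 units in the mutant and 1533, 5915 and 1760 in wild type. The groups overlapped. Its log2 ratios of 3.94, 0.77 and 0.98 had a mean of 1.90 ± 1.77 (3.72-fold, adjusted p = 0.231, 95% interval 0.10 to 3.69). Without replicate 1 the mean was 0.88 (adjusted p = 0.637). The second probe, at 103111207 to 103111266, gave 4.54, 0.37 and 1.55, with a mean of 2.15 ± 2.15. Both probes had array 1 highest and array 2 lowest, and neither passed.

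Alb was at the level of background. The spot read 80.8, 84.4 and 80.2 units in the mutant and 77.2, 76.1 and 79.4 in wild type, scaled values that include the offset of 50 added in background correction. It was well above background in the mutant on 1 array and in wild type on 0, so no fold is given. Afm, another gene of the albumin family at the locus that also holds Afp, was at 1.23 ± 0.47 (adjusted p = 0.0879).

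The fibrinogen chains are encoded side by side on chromosome 3. Fgb, the beta chain (82846334 to 82846393, mm9), read 6928, 8515 and 3331 units in the mutant and 628, 6308 and 571 in wild type. The wild-type value of array 2 lay within the mutant range, and wild type spanned 11.0-fold, the widest wild-type span of the 9 genes. The log2 ratios of 3.46, 0.43 and 2.54 had a mean of 2.15 ± 1.55 (4.43-fold, adjusted p = 0.156, 95% interval 0.56 to 3.74).

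Fgg, the gamma chain (82818825 to 82818884), had a like pattern. It read 2183, 1655 and 791 units in the mutant and 222, 1153 and 157 in wild type, again with overlap through array 2. The log2 ratios were 3.30, 0.52 and 2.33, with a mean of 2.05 ± 1.41 (4.14-fold, adjusted p = 0.144, 95% interval 0.59 to 3.51). Without replicate 2 Fgb (adjusted p = 0.0126) and Fgg (2.81, adjusted p = 0.0139) passed, and with a dye term they passed at 1.72 (adjusted p = 0.0287) and 1.67 (adjusted p = 0.0322). In both settings many more of all genes passed than in the main fit. Without replicate 1 Fgb and Fgg were at 1.49 (adjusted p = 0.568) and 1.43 (adjusted p = 0.544), and without replicate 3 at 1.95 (adjusted p = 0.432) and 1.91 (adjusted p = 0.405). Of the genes flanking the cluster, Plrg1 was at 0.10 ± 0.31, Rbm46 at 0.53 ± 0.38 and Sfrp2, a secreted Wnt antagonist, at -2.55 ± 2.56, none of them passing. Fgg and Fgb had the same order of arrays, with array 1 highest and array 2 lowest.

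Fga, the alpha chain, had 2 probes that differed most on array 2. The one that stands for the gene (82835678 to 82835737) read 558, 681 and 246 units in the mutant and 118, 699 and 139 in wild type, so that the groups overlapped. Its log2 ratios were 2.24, -0.04 and 0.82, with a mean of 1.01 ± 1.15 (2.01-fold, adjusted p = 0.326, 95% interval -0.21 to 2.23). The mean was 0.39 without replicate 1 and 1.57 with the scanner's ratio, neither passing. The probe at 82837260 to 82837319 gave 2.60, 0.98 and 0.86, with a mean of 1.48 ± 0.97 (adjusted p = 0.136 with probes tested singly). The array annotation lists 2 Ensembl transcripts for each of these probes. The 60-base sequences of both Fga probes, which read different stretches of the gene, and of the Alb probe, the one probe at background, are shown as the file gives them, 5′ to 3′.
Fga, probe standing for the gene: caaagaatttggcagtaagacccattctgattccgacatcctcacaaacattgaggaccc
Fga, other probe: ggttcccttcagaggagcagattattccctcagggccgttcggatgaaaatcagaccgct
Alb probe: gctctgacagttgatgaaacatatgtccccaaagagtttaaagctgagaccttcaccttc

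Spp2, a secreted phosphoprotein of bone and plasma related to the cystatins, was higher on each array. Its probe on chromosome 1 (90322944 to 90323003, mm9) read 18894, 8994 and 4525 units in the mutant and 1840, 4849 and 1910 in wild type, with a slight overlap. The log2 ratios of 3.36, 0.89 and 1.24 had a mean of 1.83 ± 1.34 (3.56-fold, adjusted p = 0.162, 95% interval 0.45 to 3.22). Without replicate 1 the mean was 1.07 (adjusted p = 0.509).

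Ahsg, fetuin-A, a plasma inhibitor of calcification, was the exception. The probe on chromosome 16 (22899415 to 22899474, mm9) read 118, 112 and 143 units in the mutant and 177, 273 and 168 in wild type, not far above background, where the lowest probes well above background read 50.1 to 82.7 units. The mutant values were all lower than the wild-type values. The log2 ratios of -0.59, -1.29 and -0.24 had a mean of -0.71 ± 0.54 (1.63-fold lower, adjusted p = 0.250, 95% interval -1.41 to -0.0033) and did not pass. With a dye term Ahsg was at -0.85 and passed (adjusted p = 0.0434), and with the local background not limited it was at -0.32 (adjusted p = 0.427). With the scanner's ratio it was at -1.40 (adjusted p = 0.151). Next to it on the chromosome, Fetub, the gene of the related fetuin-B, was at -0.71 ± 0.50 and Hrg at -0.15 ± 0.28, neither passing. On the other side of Ahsg, Dnajb11 was at 0.24 ± 0.16 and Tbccd1 at 0.37 ± 0.21. Both were higher on each array, and neither passed.

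**Figure D3:**
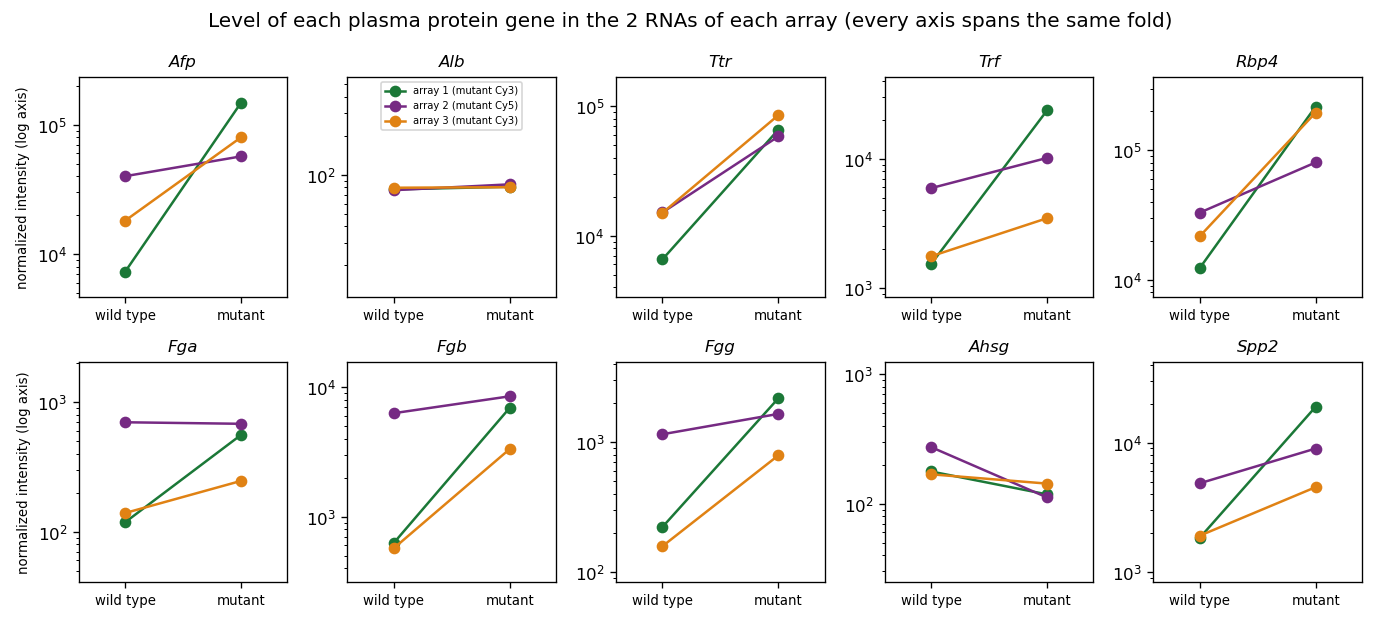
Normalized intensity (vertical log axes that all span the same fold) of each gene in the wild-type and mutant RNA, with a line joining the 2 RNAs of an array. The mutant values lie above all wild-type values for Afp, Ttr and Rbp4, the groups overlap for Trf, Fga, Fgb, Fgg and Spp2, Ahsg runs the other way and Alb is flat at background.

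The levels of the genotypes did not overlap in 4 of the 9 genes, Afp, Ttr and Rbp4 with the mutant higher and Ahsg with it lower, and in 21.6% of all genes. With the mutant higher this was 3 of the 9, and 2557 of the 19668 genes tested. Levels were also compared between arrays within a dye, the 2 Cy3 mutant RNAs against the Cy3 wild type of array 2 and the Cy5 mutant of array 2 against the 2 Cy5 wild types. Rbp4 had log2 differences of 2.64 in Cy3 and 2.30 in Cy5, and Ttr 2.31 and 2.56. Afp had 1.44 and 2.30. The 4 genes without overlap could only have 1 sign in both dyes, above 0 for Rbp4, Ttr and Afp and below 0 for Ahsg. The fibrinogen chains had a large difference in Cy5 and one near or below 0 in Cy3: Fgb was at -0.39 in Cy3 and 3.83 in Cy5, Fga at -0.91 and 2.41, and Fgg at 0.19 and 3.15. Trf was at 0.61 and 2.62, Spp2 at 0.93 and 2.26, and Ahsg at -1.07 and -0.63. The Cy3 values of Trf, Spp2, Fgb and Fgg are means over mutant RNAs of opposite sign. Trf was at 1.99 with array 1 and -0.77 with array 3, and Spp2 at 1.96 and -0.10. In the same order Fgb was at 0.14 and -0.92 and Fgg at 0.92 and -0.54. Fga was below 0 with both, at -0.32 and -1.50. Within a dye the comparison runs over 1 RNA against 2, with no test.

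Other plasma proteins had values spread around a lower median. Of 36 further genes of liver and yolk sac plasma proteins, 31 were measured, with a median of 0.44. Hpx, hemopexin, which binds heme, rose by 2.48 ± 0.34 on the log2 scale (5.58-fold, adjusted p = 0.0354). Serping1, the C1 inhibitor of the complement system, fell by 2.10 on the log2 scale (SD 0.31, 4.28-fold lower, adjusted p = 0.0413). Those were the 2 called, and Ambp, a protease inhibitor and microglobulin precursor, was at 1.97 ± 0.75 (adjusted p = 0.0655). On all 3 arrays 12 of the 31 were higher and 3 lower.

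Genes for uptake of these proteins had values on both sides of 0. Of 14 receptors and partners, 13 were measured, with a median of 0.58. Stra6, the cell-surface receptor for Rbp4, fell by 2.14 (SD 0.18, 4.40-fold lower, adjusted p = 0.0354), with -2.03, -2.04 and -2.35 on the 3 arrays, and was the only one called. The iron exporter Slc40a1 was at 1.23 ± 0.64 (adjusted p = 0.119) and the cubilin partner Amn at 1.27 ± 0.71 (adjusted p = 0.129). The transferrin receptors Tfrc and Tfr2 were at -0.18 ± 0.33 and 0.035 ± 0.57.

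Transcription factors of liver and visceral endoderm promoters had a median of 0.55 over 16 measured of 17. Foxa1, a pioneer factor, rose by 1.78 ± 0.34 on the log2 scale (3.43-fold, adjusted p = 0.0466), the only one called. Its array ratios of 1.46, 1.74 and 2.14 did not have the low value on array 2 that the plasma protein genes had. Onecut1 was at 1.55 ± 0.57 (adjusted p = 0.0703), Foxa3 at 2.05 ± 0.89 (adjusted p = 0.0730) and Hnf4a at 2.08 ± 1.05 (adjusted p = 0.0902). On all 3 arrays 7 of the 16 were higher and 2 lower, Cebpa at -0.79 ± 0.42 (adjusted p = 0.172) and Zhx2 at -0.28 ± 0.30 (adjusted p = 0.531).

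The promoters were compared for a few common motifs. RefSeq windows on GRCm38.p6, from 250 bases before to 50 after the start, were given for 8 of the 10 genes, not for Ttr and Trf, and both strands were searched in the 32851 windows of all genes. TATAAA occurred in Afp and Rbp4 and in 13.6% of all windows. The second motif, CCAAT, was in Afp, Alb, Ahsg and Rbp4 (37.4% of all), the FOXA letters TGTTTAC in Rbp4 alone (3.65%), the HNF4 letters CAAAGTCCA in none (0.475%) and the letters AGATAA in Ahsg and Spp2 (11.2%). A match is a description of the letters and not of binding. Letters bound by other liver factors were not counted here, so the windows may hold such sites. The windows of Afp and Rbp4 are shown as the 2 with TATAAA, that of Alb as the gene not above background and that of Ahsg as the gene with the opposite ratio. Each run is the 150 bases before the start, 5′ to 3′ on the gene's strand, with the TATAAA matches and the matches to the second motif, on whichever strand, in capitals. They lie at chr5:90490564-90490713 (Afp, plus strand), chr19:38124812-38124961 (Rbp4, minus strand), chr5:90460720-90460869 (Alb, plus strand) and chr16:22891865-22892014 (Ahsg, plus strand) of GRCm38.p6. Rbp4 has 2 windows: TATAAA lies in the one shown, and the FOXA letters and the second motif lie in the other, not in the same promoter. The match to the second motif in Ahsg lies outside the stretch shown.
Afp: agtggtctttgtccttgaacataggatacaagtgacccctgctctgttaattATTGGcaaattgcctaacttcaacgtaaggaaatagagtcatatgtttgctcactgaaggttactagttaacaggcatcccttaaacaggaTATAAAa
Rbp4: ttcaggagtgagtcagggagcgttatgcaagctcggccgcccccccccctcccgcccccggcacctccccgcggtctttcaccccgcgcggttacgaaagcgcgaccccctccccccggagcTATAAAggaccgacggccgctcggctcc
Alb: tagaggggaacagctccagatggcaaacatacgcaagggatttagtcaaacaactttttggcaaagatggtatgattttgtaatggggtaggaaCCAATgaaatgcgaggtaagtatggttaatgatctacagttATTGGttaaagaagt
Ahsg: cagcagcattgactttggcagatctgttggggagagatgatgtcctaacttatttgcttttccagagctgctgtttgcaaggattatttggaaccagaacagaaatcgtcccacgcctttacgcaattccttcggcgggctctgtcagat

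Markers of the tissues that make these proteins were measured beside them, and their part in the ratios was not tested. Of 14 visceral endoderm markers without plasma proteins 13 were measured, with a median of 1.27 and array medians of 2.08, 0.32 and 0.93. Ctsh, a lysosomal protease, was the single one called, at 1.88 ± 0.18 (adjusted p = 0.0413), Pdzk1 was at 1.69 ± 0.73 and Cited1 at 1.38 ± 0.57, and Lrp2, megalin, was lower on each array at -0.62 ± 0.27. The summed level of the 13 was 347243 to 544422 units in the mutant and 153029 to 225092 in wild type. Of 13 hepatoblast and hepatocyte markers 9 were measured, with a median of 1.55, summed levels of 37059 to 47392 and 7187 to 19322, and 0 called in limma (6 at an unadjusted p under 0.05). Tdo2 was at 1.98 ± 0.67 and Tbx3 at 1.98 ± 0.78. On all 3 arrays 6 of the 9 were higher. The other 3 were mixed in sign, Cyp2e1 at -0.23 ± 0.31, Tat at -0.029 ± 0.27 and Pck1 at 0.21 ± 0.29. The liver enzyme genes Cps1, G6pc and Hpd, and Prox1, did not pass the filter, like Alb.

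Genes of other tissues lay in both directions. Among 10 measured gut and definitive endoderm genes (median 1.26, summed level 96231 to 126034 against 35655 to 52809) the 3 called were all higher, Tff3, Krt19 and Cdx2, the last an intestinal factor at 2.14 ± 0.56 (adjusted p = 0.0481). On all 3 arrays 7 of the 10 were higher and 1, Cdx1 at -0.20 ± 0.17, was lower. The 11 parietal endoderm genes had a median of -1.36 (322222 to 457055 against 427631 to 692103). Of these, 9 were lower on all arrays, as were 3765 of the 19668 genes tested. Thbd was called at -3.05 ± 0.41 (adjusted p = 0.0354). The other 2, Krt8 at 1.47 ± 0.64 and Sparc at 1.24 ± 0.41, were higher on all arrays. The 7 measured choroid plexus genes, listed because choroid plexus also makes Ttr, had a median of 0.24 (31024 to 39228 against 34910 to 42830) and 0 called in limma, 3 with an unadjusted p under 0.05; the markers Kl and Kcne2 were well above background on 0 arrays, while Clic6 was so in both genotypes on 3 arrays but was not tested, since its spot was an outlier on 1 array. Medians were 2.76 for 8 cardiac muscle genes (16999 to 80711 against 4863 to 9945), of which 2 were called higher, 0.47 for 7 primitive erythroid genes (39829 to 79273 against 17976 to 25447), -2.45 for 8 neural genes (2365 to 3500 against 5043 to 30109) and -0.97 for 8 pluripotency genes (22801 to 204995 against 90909 to 237590), with 0 called in the last 3 lists in limma (2, 8 and 1 at an unadjusted p under 0.05). The pluripotency median was -2.21, -1.81 and 0.81 on arrays 1, 2 and 3, so that array 3 went the other way. Some genes are in more than 1 list. No list median of the mean ratios changed sign with the background not limited, with scaling or with median centring.

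**Figure D4:**
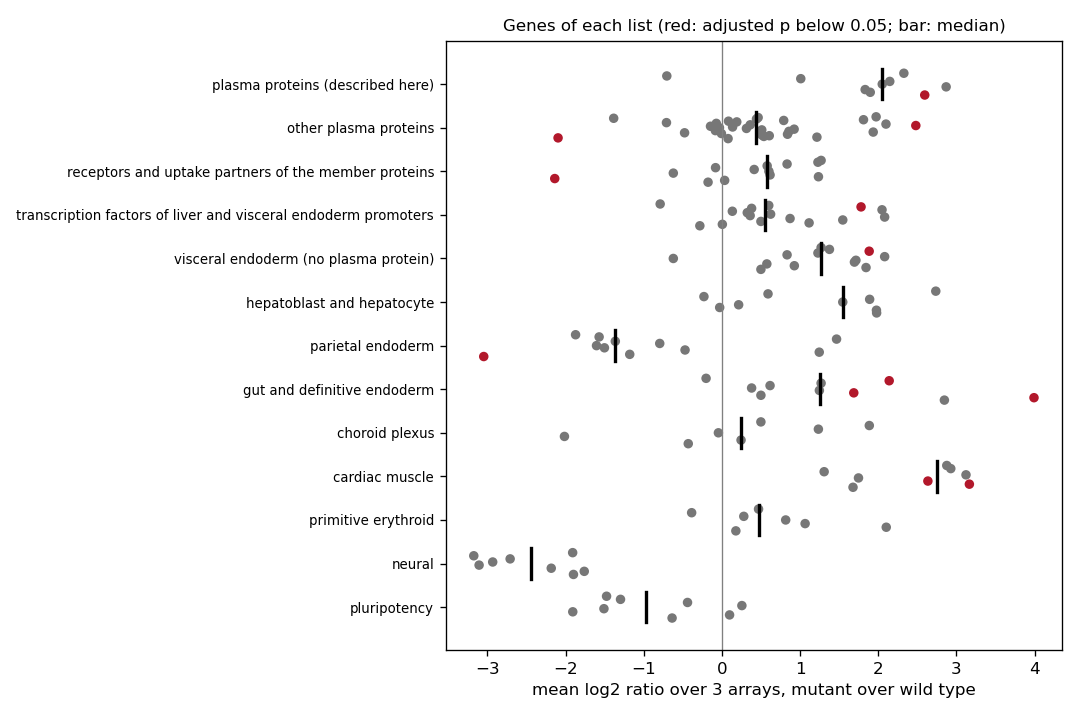
Mean log2 ratio of mutant over wild type over 3 arrays (horizontal axis) of every measured gene of each list (rows), in red where the adjusted p was below 0.05, with a black bar at the list's median. The plasma protein genes described here have a median of 2.05, and the other plasma proteins one of 0.44.

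The genes whose array ratios lay closest to the median profile of the 9, 3.36, 0.52 and 2.14, were found by Euclidean distance over the 3 arrays. These were the amino acid transporter gene Slc7a9 at 3.54, 0.52 and 2.27 (distance 0.219), Dpp4, a cell-surface peptidase gene (0.384), the glucose transporter gene Slc2a2 (0.388), the serotonin transporter gene Slc6a4 (0.438) and Misp3 (0.461). None of the 5 passed the test. A likeness over 3 arrays is a description of these values.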

How the data were processed

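Spot and local background intensity and a log10 ratio (red over green) come from the deposited scanner output, Feature Extraction 10.7.3.1 in its header. A further deposited table gives the authors' log2 ratios; the submitters' processing notes name limma. Set against the scanner ratios at 7636 bright spots, the slopes of that table for mutant over wild type were 0.92, 0.96 and 0.99. Its column medians were -0.01, 0.02 and -0.01. How it was centred and background-corrected is not known.

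With limma 3.58.1 in R 4.3.3, local background was capped at 100 units (25 spots of array 2 exceeded it, and 0 elsewhere). Normexp with an offset of 50 and loess on each array followed. Control spots got weight 0 in the loess and were then dropped with outlier spots, and repeated spots were averaged. A probe was kept if 1 genotype or both read well above background on every array and every array gave a ratio (25497 of 39429), and the probe of highest mean intensity stood for its gene. Levels are intensities after a further Aquantile step. The test was lmFit with eBayes on the 3 ratios, two-sided, adjusted by Benjamini-Hochberg, with 0.05 as the threshold; it was tested on simulated data. An exact sign-flip permutation test of 3 arrays cannot go below p = 0.25. Symbols came from a RefSeq table of GRCm38.p6 (27234 probes matched by accession, 3576 by symbol and 565 by synonym, while 8054 kept the name on the array).

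The members, the lists and the cap of 100 were chosen with earlier results of these data known. Genes named are the 10 members, up to 3 of smallest p in a list, the 5 nearest the members' profile, Dido1, Eif2s3y and Ddx3y. Further list genes and the genes beside the members were named after their values were seen. Some results are not reported here. Alternatives were no cap or one of 200, an offset of 16, background left uncorrected, ratios as the scanner computed them, median centring, scaling, no filter or one in both genotypes, probes averaged per gene or tested singly, a dye term, unpaired channels, an intensity trend, omission of each replicate, the authors' table and omission of the first 50 rows of spots.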

Additional observations from a re-analysis of the deposited data

How the results depend on the processing

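The median ratio of the measured genes stayed above 0 under all 19 alternatives, from 1.32 to 2.81 with a replicate left out and from 1.67 to 2.19 otherwise. The number called higher, 1, was 0 with the local background not limited, without background correction, without a filter and with the authors' values, 2 with no replicate block (the 6 channels unpaired), and 4, with 1 lower, with a dye term, under which array 2 is fitted exactly. It was 0 to 5 with a replicate left out. Over all genes, 325 calls became 0 with the background not limited, without a filter and with the authors' values, 730 with an offset of 16, 769 with the scanner's ratio, 663 with probes tested singly, 2534 with a dye term, 675 with no replicate block, 602 with an intensity trend, and 0 to 5082 with a replicate left out. The replicate number is the array here, so the ratios are paired by construction. The causes were not tested. No ratio of a measured gene changed sign. Low signal limits Alb, Ahsg, Fga and, in wild type, Fgg, and the number of arrays limits all.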

Other observations

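Across 81 probes spotted at least 6 times, the median difference in log2 ratio between the first 50 rows and the other rows was 0.033 on array 2, and 28 of the 81 probes were lower in those rows. For Afp the difference was -0.69 on array 2, against -0.037 and -0.019 on arrays 1 and 3. The lowest difference of any of these probes on array 2 was -0.96. The cause of the low values of the 3 Afp spots was not tested.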
